A study of Mus musculus with 6 samples.

Results

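The genes described here are SREBP2, the transcription factor that drives cholesterol synthesis in the liver, and the enzymes and regulator it is known for switching on. They were listed by name as Srebf2, Hmgcs1, Sqle, Fdft1, Idi1, Cyp51, Lss and Insig1. A gene was measured where the platform annotation gave it a probe set with that symbol and no other, and the brightest such probe set on average over the 6 arrays stood for the gene. Of the 8 genes, 7 were measured, on 19 probe sets, out of 12393 genes in all, and all 7 passed the filter on low values that left 8343 genes for testing. No probe set with that single symbol was used for Insig1, which was not analysed here. Liver RNA of wild-type mice (3 samples) was compared with liver RNA of SIRT7 knockout mice (3 samples), each sample on its own 1-colour Affymetrix array. Both groups are described only by their Sirt7 allele. The labels give no strain, age, sex, diet, feeding state or time of dissection, nor do they state whether SIRT7 is missing in the whole animal or in hepatocytes alone. Whether each sample is a different animal is not stated, so the p-values reflect only how far these samples spread, and that spread may be technical.

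SREBP2 is made as a membrane protein of the endoplasmic reticulum, where the escort protein SCAP and the anchor proteins INSIG1 and INSIG2 hold it while sterols are plentiful. When sterols run low, SCAP carries it to the Golgi, proteases cut it, and the freed fragment enters the nucleus and binds sterol regulatory elements in promoters, usually beside NF-Y, which binds CCAAT boxes, and SP1, which binds GC boxes. Its targets include nearly every enzyme of the route from acetyl-CoA to cholesterol, its own gene, and Insig1, which closes a feedback loop. Hepatocytes use this route for lipoproteins and bile acids.

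The promoter sequences of the set are shown as a description. The members were listed by name and not by sequence. They are known SREBP2 targets, however, so the choice was not independent of the letters described here. RefSeq promoter windows of assembly GRCm38.p6, from 250 bases before to 50 bases after the start site, were found for 6 of the 8 genes, and none was used for Sqle or Fdft1. The stretches of 60 bases below run 5′ to 3′ on the strand of the gene. Capitals mark the CCAAT box letters ATTGG (or CCAAT) and the letters TCACNCCAC or TCACNCCA of a sterol regulatory element.
Hmgcs1, chr13:119690169-119690228, plus strand: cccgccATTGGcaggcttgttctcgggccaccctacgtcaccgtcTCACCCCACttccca
Srebf2, chr15:82147106-82147165, plus strand: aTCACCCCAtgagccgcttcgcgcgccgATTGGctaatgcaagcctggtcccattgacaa
Idi1, chr13:8885546-8885605, plus strand: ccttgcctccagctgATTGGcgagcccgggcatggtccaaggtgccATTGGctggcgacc
Lss, chr10:76531515-76531574, plus strand: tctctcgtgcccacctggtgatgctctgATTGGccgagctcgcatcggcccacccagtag
Cyp51, chr5:4104698-4104757, minus strand: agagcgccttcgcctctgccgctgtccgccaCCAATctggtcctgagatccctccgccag
Insig1, chr5:28071168-28071227, plus strand: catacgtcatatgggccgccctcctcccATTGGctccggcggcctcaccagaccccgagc

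All 6 windows held ATTGG on either strand, against 37.4% of the 32851 windows in the RefSeq table. All 6 also held the GC box letters GGGCGG on either strand, against 35.7% of windows. The sterol regulatory element letters TCACNCCAC were found only in the Hmgcs1 window, at positions -137 to -129 from the start site, and in 1.24% of all windows. The shorter form TCACNCCA, which was added after the windows had been read and lies inside the longer one, was found in Hmgcs1 and Srebf2 and in 4.36% of all windows. The E-box letters CACGTG occurred in Insig1 alone among the 6 windows and in 7.15% of all windows. These are matches of letters and not measured binding sites, and the windows are short.

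Sirt7 itself separated the groups, with log2 values of 9.85, 9.80 and 9.57 in wild-type livers and 2.38, 3.11 and 2.86 in knockout livers, each given as replicates 1, 2 and 3 in this order, which holds for all values by liver below. The difference, here and throughout knockout minus wild type on the log2 scale, was -6.96 (SE 0.23, limma adjusted p = 3.99e-06). Of the 8343 genes tested, 2 passed an adjusted p of 0.05, which is 0.0240%, and 539 (6.46%) had an unadjusted p under 0.05, of which the higher in knockout made 3.04% of genes and the lower 3.42%. Of the 10 hepatocyte markers listed, 7 were tested, with mean log2 values over the list of 12.51 to 12.80 in wild-type and 12.43 to 12.80 in knockout livers. Kupffer cell and macrophage markers (9 of 10 tested) ranged from 8.60 to 8.75 and from 8.57 to 9.05, endothelial markers (8 of 8) from 7.19 to 7.39 and from 7.17 to 7.47, and stellate cell markers (7 of 8) from 7.30 to 7.53 and from 7.16 to 7.42. Lymphocyte markers (5 of 8) ranged from 5.42 to 5.88 and from 4.91 to 6.63, erythroid markers (2 of 6) from 7.23 to 8.02 and from 7.75 to 8.49, and cholangiocyte markers (3 of 6) from 4.69 to 4.95 and from 4.43 to 4.80. Of the erythroid markers, Slc4a1 was at 5.36, 4.39 and 5.69 for wild type and 5.95, 7.02 and 6.42 for knockout, higher in 3 of 3 knockout livers, at a difference of 1.32 (SE 0.38, unadjusted p = 0.00731 and adjusted p = 0.725 with limma), while Alas2 differed by -0.14. Among the other markers, the groups did not overlap for Cd68 (0.50), Tek (-0.27), Des (-0.24), Acta2 (-0.53) and Sox9 (-0.91). The limma adjusted p of these genes was 0.746 to 0.804, and 9.74% of all genes tested had no overlap. Their lists were mixed in direction. Of 9 Kupffer cell and macrophage markers, 7 were higher and 2 lower in knockout livers. The counts were 5 higher and 3 lower for endothelial, 2 and 5 for stellate cell, and 1 and 2 for cholangiocyte markers. Cd3g and Nkg7 of lymphocytes, Epcam and Cftr of cholangiocytes and Hba-a1 of erythroid cells had means under 4. In bulk RNA, fewer cells of a type and less RNA per cell cannot be told apart.

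None of the 7 measured genes of the SREBP2 set differed between SIRT7 knockout and wild-type livers beyond the spread between samples. Limma called 0 of 7 after adjustment over all genes (adjusted p 0.797 to 0.993), against 0.0240% of all genes tested. At an unadjusted p under 0.05 it called 0 of 7, against 6.46%. The groups overlapped in all 7, against no overlap in 9.74% of all genes tested (4.27% higher and 5.48% lower in knockout). With shares this low over all genes, counts of 0 among 7 genes say little about this set in particular. Without 1 liver at a time limma again called 0 of 7, against 0.0240% of genes without wild-type replicate 1, 0.0839% without replicate 2 and 0.455% without replicate 3. The share was 0.0599% without knockout replicate 1 and 0.0120% without replicate 2 or replicate 3. On average Srebf2, Idi1 and Fdft1 were higher and Hmgcs1, Sqle, Lss and Cyp51 lower in knockout livers, with a median difference of -0.029 on the log2 scale, beside -0.032 over all genes tested. With 1 liver left out the median of the set ran from -0.13 (wild-type replicate 3) to 0.054 (wild-type replicate 1), so its sign rests on single livers, and it was -0.14 with the mean of each gene's probe sets. The differences lay between -0.44 and 0.28. For 6 of the 7 genes the 95% interval stayed within 1 log2 unit in either direction, that is, within a doubling or halving, as it did for 79.6% of all genes tested. The exception was Lss.

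Srebf2 encodes the factor itself. Its log2 values were 7.76, 7.69 and 8.15 for wild type and 8.23, 8.04 and 8.16 for knockout. Wild-type replicates 1 and 2 were the lowest livers, and wild-type replicate 3 lay among the knockout livers. The means were 7.87 ± 0.25 and 8.14 ± 0.10 for wild type and knockout (SD, 3 livers each), a difference of 0.28 (SE 0.20, 95% interval -0.17 to 0.73, limma adjusted p = 0.801). It was 0.42 without wild-type replicate 3 and 0.16 with the mean of both probe sets. A second, dimmer probe set of Srebf2 differed by 0.04.

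Hmgcs1 encodes the cytosolic HMG-CoA synthase that feeds the mevalonate route. It was at 12.76, 12.78 and 13.28 for wild type and at 12.34, 12.33 and 13.01 for knockout. Knockout replicates 1 and 2 lay below every wild-type liver, while replicate 3 lay above wild-type replicates 1 and 2. The means were 12.94 ± 0.29 and 12.56 ± 0.39 (SD, n = 3 each), and the difference was -0.38 (SE 0.26, interval -0.96 to 0.20, limma adjusted p = 0.797). Leaving out knockout replicate 3 gave -0.60 and leaving out wild-type replicate 3 gave -0.21, while averaging the Hmgcs1 probe sets gave -0.155. These values are close to the top of the arrays, whose highest values were 13.37 to 13.97.

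Idi1 encodes the isomerase that interconverts the isoprenoid building blocks, and Fdft1 the squalene synthase that commits them to sterols. Idi1 stood at 11.44, 11.22 and 10.95 for wild type and at 11.66, 11.53 and 10.98 for knockout. In both groups replicate 3 was the lowest, and the difference was 0.19 (SE 0.24, interval -0.36 to 0.74, limma adjusted p = 0.879). The size of the Idi1 difference depended on single livers, at 0.39 without knockout replicate 3 and 0.31 without wild-type replicate 1, but 0.06 without either knockout replicate 1 or wild-type replicate 3, and 0.12 without knockout replicate 2. Averaging both Idi1 probe sets gave 0.10. Fdft1 stood at 11.86, 11.86 and 11.43 for wild type and at 11.65, 11.59 and 11.93 for knockout. Wild-type replicate 3 was the lowest liver and knockout replicate 3 the highest, and the difference was 0.01 (SE 0.21, interval -0.46 to 0.48, limma adjusted p = 0.993). The direction of so small a difference was not stable, since Fdft1 was at -0.13 without wild-type replicate 3 and at -0.09 without knockout replicate 3.

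Sqle encodes squalene epoxidase, a rate-limiting step of the later route. Its values were 10.48, 10.33 and 10.33 for wild type and 10.03, 9.97 and 10.34 for knockout. Knockout replicates 1 and 2 lay below all wild-type livers, and replicate 3 lay just inside the wild-type range. The difference was -0.27 (SE 0.19, interval -0.70 to 0.16, limma adjusted p = 0.80), from 10.38 ± 0.08 to 10.11 ± 0.20 (SD, n = 3 each).

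Lss encodes lanosterol synthase, which folds the epoxide into the first sterol. It varied most among livers, at 10.49, 10.59 and 10.00 for wild type and at 9.32, 9.64 and 10.80 for knockout. The knockout livers held both extremes, with replicates 1 and 2 below every wild-type liver and replicate 3 above every one. The difference of -0.44 (SE 0.37, limma adjusted p = 0.833) had an interval of -1.28 to 0.41, which runs from 0.412-fold to 1.33-fold. It lay between -0.88 without knockout replicate 3 and -0.13 without knockout replicate 1, and averaging the Lss probe sets gave -0.29. With arrays weighted by their estimated quality it was -0.82 and passed the threshold (adjusted p = 0.0266), in a fit that called 21.0% of all genes.

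Cyp51 encodes the demethylase that trims lanosterol, and it varied least. It was at 11.63, 11.38 and 11.39 for wild type and at 11.40, 11.46 and 11.46 for knockout. All knockout livers lay inside the wild-type range, and the difference of -0.03 (SE 0.18, limma adjusted p = 0.981) had an interval of -0.43 to 0.38, or 0.741-fold to 1.30-fold. Averaging its probe sets gave -0.14, and the sign turned to 0.05 without wild-type replicate 1. The residual SD, the spread left within groups, was 0.10 for Cyp51 and 0.59 for Lss, around a median of 0.21 for the 7 genes and 0.28 for all genes tested.

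**Figure D1:**
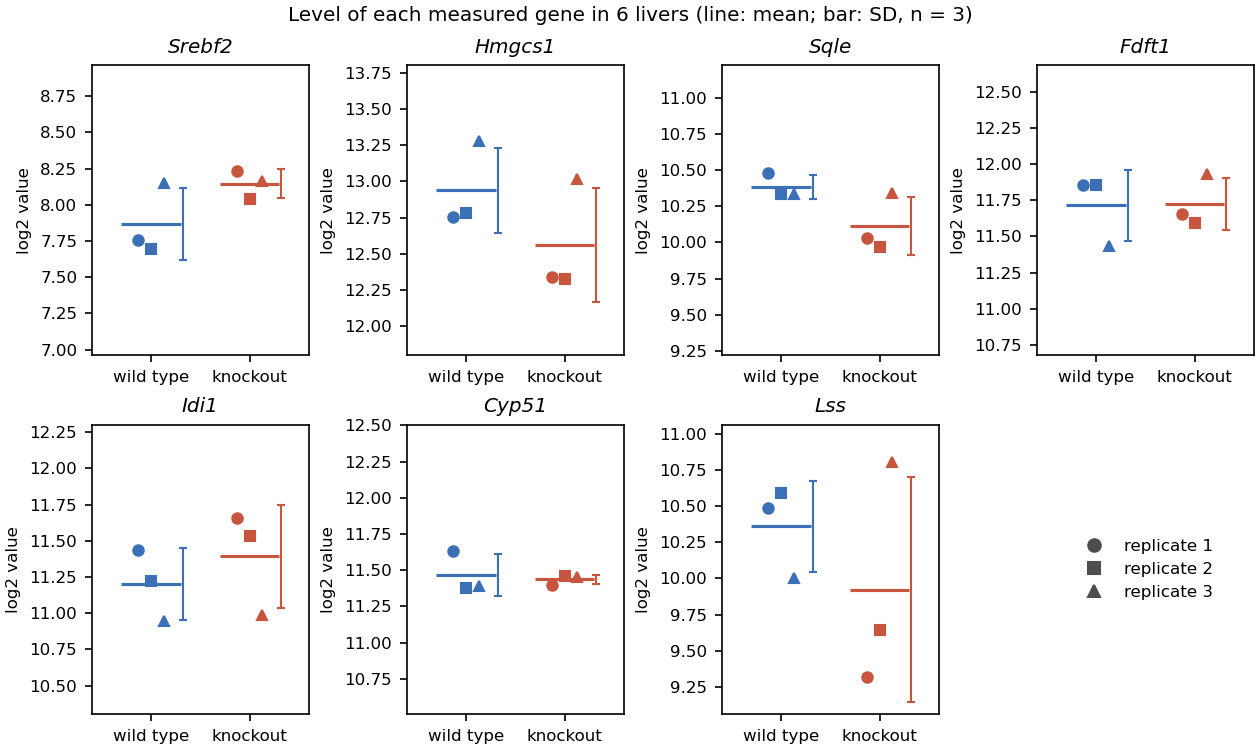
Log2 value (y axis, each panel spanning 2 log2 units) of the 7 measured genes in wild-type (blue) and SIRT7 knockout (red) livers, with symbols for replicates 1 to 3, a line at the group mean and a bar of 1 SD (n = 3). The groups overlap in every panel; Lss has the widest spread, with knockout livers at 9.32, 9.64 and 10.80, and Cyp51 the narrowest.

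Several genes of the set were measured more than once, and their probe sets did not always differ in the same direction. Of the 19 probe sets, 17 had a mean of at least 4, of which 8 were higher and 9 lower in knockout livers, between -0.48 and 0.28. With each probe set tested on its own, limma called 0 of 17 after adjustment (smallest adjusted p = 0.809), against 0.0152% of 13143 probe sets. In 4 of the 6 genes with more than 1 such probe set, the probe sets differed in sign.

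Hmgcs1 showed the clearest disagreement. Its second probe set, which by the array maker's naming can cross-hybridise, differed by 0.04. It read 12.38, 11.83 and 11.93 for wild type and 12.14, 12.41 and 11.73 for knockout. There knockout replicate 2 was the highest liver and knockout replicate 3 the lowest, whereas with the probe set used knockout replicate 2 was the lowest and knockout replicate 3 the second highest. The other probe sets differed by -0.01 and -0.28. As a description over the same 6 arrays, the Pearson correlation with the probe set used was -0.63, -0.53 and 0.28 for these 3 in turn.

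The 3 probe sets of Lss kept together better. The second read 10.30, 9.85 and 9.42 for wild type and 8.84, 9.11 and 10.19 for knockout, a difference of -0.48, with knockout replicates 1 and 2 again the lowest (r = 0.95 with the probe set used). The third differed by 0.05 (r = 0.59). By the array maker's naming, the Lss probe set used can match transcripts of more than 1 gene and that of Fdft1 can cross-hybridise, so both values are uncertain to that extent. The second bright probe set of Fdft1 differed by -0.17, that of Idi1 by 0.01, and the other probe sets of Cyp51 by 0.02 and -0.40.

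**Figure D2:**
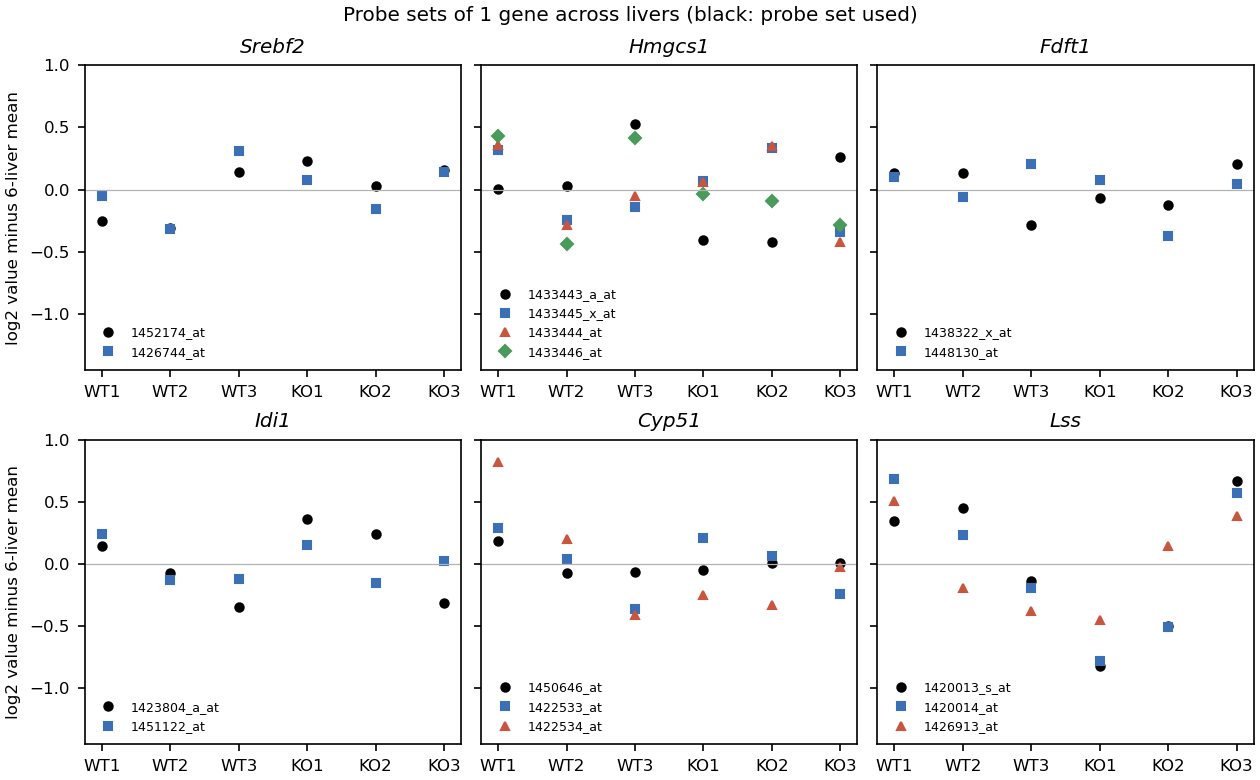
Log2 value minus the mean over 6 livers (y axis) of every probe set with a mean of at least 4, in wild-type (WT1 to WT3) and knockout (KO1 to KO3) livers, for the 6 genes with more than 1; black circles are the probe set used. The first 2 Lss probe sets track each other, while the Hmgcs1 probe sets part ways in knockout replicates 2 and 3.

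The 7 genes did not move as 1 block from liver to liver. The mean of their deviations from their own 6-liver means was 0.11, 0.03 and -0.01 for wild type and -0.14, -0.15 and 0.15 for knockout. Thus 6 of 7 genes were above their mean in wild-type replicate 1 and in knockout replicate 3, and 2 and 3 of 7 in knockout replicates 1 and 2. Over the 6 livers, which share arrays and processing across genes, Pearson correlations between pairs of genes ran from -0.94 to 0.83, and 9 of 21 pairs were positive. Sqle and Lss were the most alike (0.83), followed by Hmgcs1 with Sqle (0.75) and Fdft1 with Lss (0.72). Srebf2 ran from -0.52 with Lss to only -0.06 with Idi1 and -0.001 with Hmgcs1, which are negligible values over 6 livers. All these correlations run across both groups and so include the differences between groups. For Srebf2 only the probe set used was correlated. Hmgcs1 and Idi1 were the most opposed (-0.94), but this rested on the probe sets chosen. With the same Idi1 probe set, the second Hmgcs1 probe set gave 0.76 and the third 0.69.

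The genes outside the lists whose deviations lay nearest to the mean of the set were 9130401M01Rik, Aldh1a7, Ppp4r2, P3h3 and Ppp1r2, with a mean absolute distance of 0.016 to 0.034 log2 units over the 6 livers. None of these 5 passed the threshold (limma adjusted p 0.870 to 0.973). The profile they match is nearly flat, so the likeness is one of small deviations.

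With the probe sets used, Hmgcs1, Sqle and Lss shared 1 arrangement, noticed in the values. Knockout replicates 1 and 2 lay below every wild-type liver and knockout replicate 3 did not. None of the other Hmgcs1 probe sets showed it. The second read 12.14 and 12.41 in knockout replicates 1 and 2, against 11.83 in wild-type replicate 2. Of the other Lss probe sets, the second showed the arrangement and the third did not. With the probe sets used, the arrangement held for 3 of 7 genes of the set (42.9%) and 6 of the 19 enzymes of cholesterol synthesis tested (31.6%). It held for 17.3% of all genes tested. The shares of the set and of the enzymes count the 3 genes in which it was noticed, so neither can show an excess over all genes. The other enzymes with it were Mvk, Pmvk and Dhcr7, so outside the set it held for 3 of 13 enzymes. Over the 43 pathway genes tested, which include those of the set, it held for 10 (23.3%), nearer to the share over all genes. Among the 7 hepatocyte markers it held for Alb, Apoa1 and Fgb. Albumin (Alb) read 12.80, 12.90 and 12.94 for wild type and 12.41, 12.45 and 13.10 for knockout, and Apoa1 read 13.50, 13.72 and 13.71 and then 13.19, 13.04 and 13.97. The other hepatocyte markers did not share it. Cps1, the urea cycle gene, was arranged the opposite way, at 12.31, 12.12 and 12.38 and then 12.54, 12.55 and 12.03, with knockout replicates 1 and 2 above every wild-type liver and replicate 3 below. Ttr had 2 knockout livers above every wild-type liver, and the differences of Ttr, Cps1 and Tat were 0.10, 0.10 and 0.07, while that of Hnf4a was -0.18. The mean over the 7 markers was 12.51, 12.72 and 12.80 for wild type and 12.55, 12.43 and 12.80 for knockout. Whether the markers and Hmgcs1, Sqle and Lss share a shift between livers was not tested.

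Of 23 listed enzymes from acetyl-CoA to cholesterol, 19 were tested, 8 of them higher and 11 lower in knockout livers, with a median difference of -0.075. Limma called 0 of 19 after adjustment, against 0.0240% of all genes tested. At an unadjusted p under 0.05 there was 1 (5.26%), against 6.46% of all genes tested. That was Ggps1, which makes the geranylgeranyl donor for protein prenylation on a side branch. Ggps1 read 8.06, 7.99 and 7.43 for wild type and 7.15, 7.31 and 7.42 for knockout, so the groups met without overlapping, at a difference of -0.53 (SE 0.22, limma adjusted p = 0.772). Its other probe sets differed by -0.14, -0.19 and -0.28. By the array maker's naming, the Ggps1 probe set used can, like that of Lss, match transcripts of more than 1 gene.

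Fdps, the farnesyl diphosphate synthase gene, differed the other way. It read 10.05, 10.40 and 11.05 for wild type and 11.12, 10.68 and 11.24 for knockout, with wild-type replicates 1 and 2 lowest, at a difference of 0.51 (SE 0.28, limma adjusted p = 0.794). Mvd, the mevalonate diphosphate decarboxylase gene, differed by -0.30 (SE 0.35). Among the enzymes after lanosterol, the methylsterol oxidase gene Msmo1 differed by 0.003 (interval -0.49 to 0.50), Nsdhl, a sterol decarboxylase gene, by -0.16 (-0.63 to 0.31), and Dhcr7, which catalyses a last step to cholesterol, by -0.21 (-0.76 to 0.33). Lbr, a sterol reductase of the nuclear envelope, differed by 0.25 (-0.22 to 0.72).

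**Figure D3:**
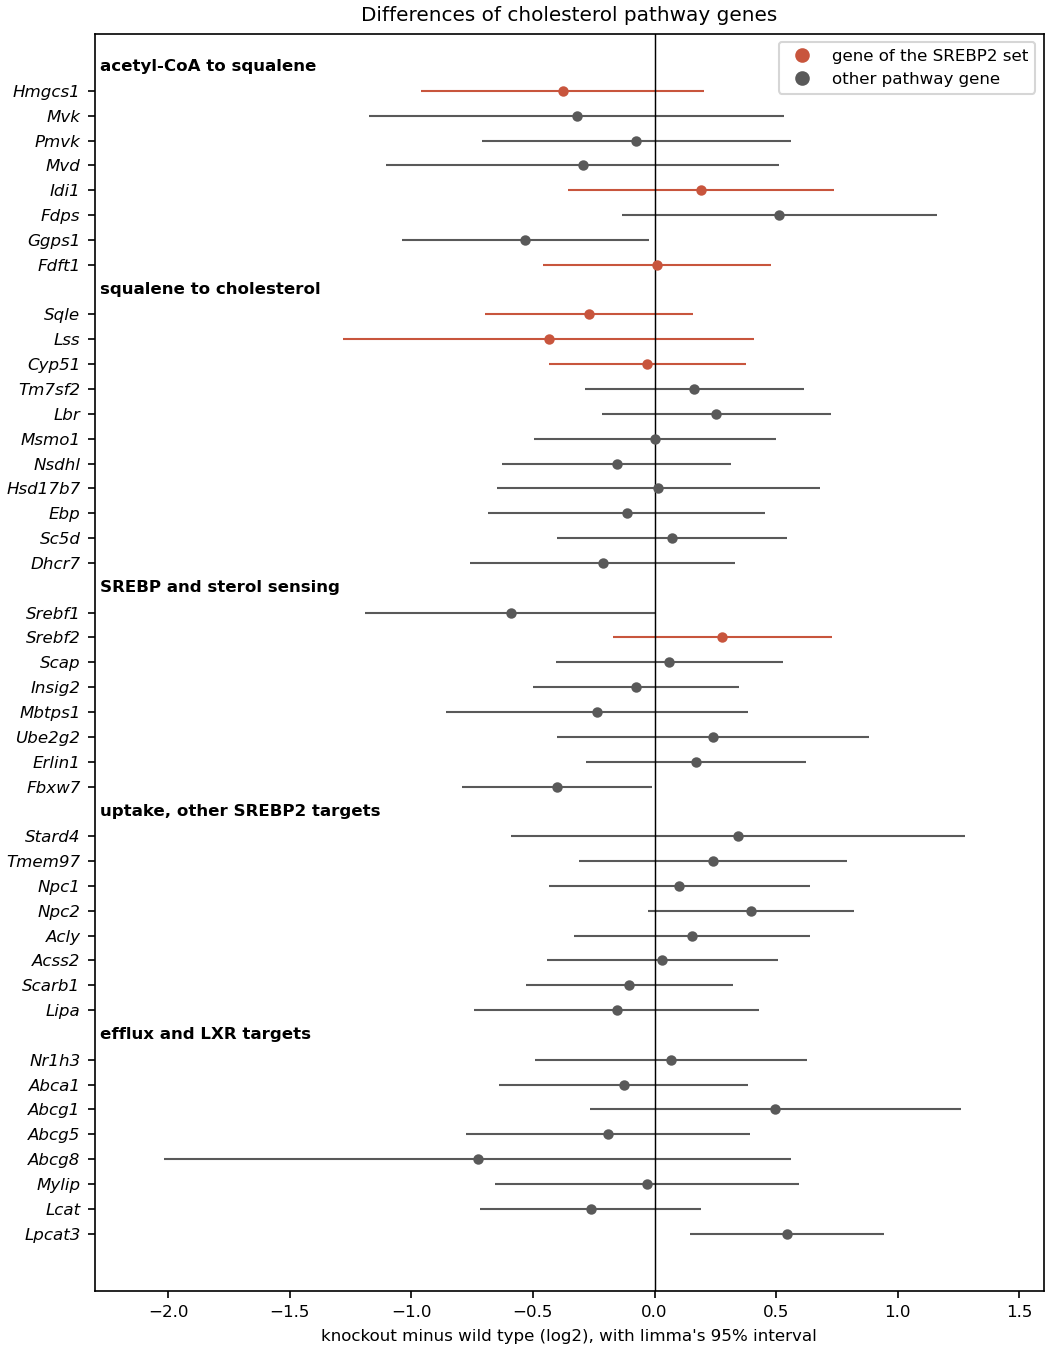
Knockout minus wild-type difference on the log2 scale (x axis) with limma's 95% interval for the 43 cholesterol pathway genes tested, grouped by role; red marks the genes of the SREBP2 set. All 7 red intervals cross 0, and Ggps1, Fbxw7 and Lpcat3 are the 3 genes whose interval does not.

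Of the 14 listed genes that process SREBPs or sense sterols, 8 were tested, 4 higher and 4 lower. Their median was -0.007, beside -0.032 over all genes tested. Limma called 0 of 8 after adjustment, against 0.0240% of all genes tested. Srebf1 encodes the relative of SREBP2 that drives fatty acid synthesis. It read 10.95, 10.95 and 10.92 for wild type and 9.97, 10.15 and 10.93 for knockout. Knockout replicate 3 stood at the wild-type level and the other knockout livers below it, at a difference of -0.59 (SE 0.26, interval -1.19 to 0.01, limma adjusted p = 0.773). The escort gene Scap differed by 0.06 (interval -0.41 to 0.53) and the anchor gene Insig2 by -0.08 (-0.50 to 0.35), with -0.15 and 0.18 on other probe sets of Insig2. Fbxw7 encodes the ubiquitin ligase subunit that marks nuclear SREBPs for destruction. It was at 8.87, 8.77 and 8.75 for wild type and at 8.41, 8.44 and 8.33 for knockout, every knockout liver below every wild-type liver, at a difference of -0.40 (SE 0.17, unadjusted p = 0.0455 and adjusted p = 0.772 with limma). Its dimmer probe set differed by 0.51.

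Of the 11 listed genes of sterol uptake and other SREBP2 targets outside the route, 8 were tested, 6 higher and 2 lower. Their median was 0.13, beside -0.032 over all genes tested. After adjustment 0 of 8 were called, against 0.0240% of all genes tested. Npc2, which hands cholesterol out of lysosomes, read 10.62, 10.62 and 10.49 for wild type and 11.09, 11.08 and 10.75 for knockout, with no overlap, at a difference of 0.40 (SE 0.19, limma adjusted p = 0.773). Stard4, a sterol carrier gene, differed by 0.34 (interval -0.59 to 1.27), from knockout values as far apart as 10.97 and 9.29. Tmem97, the gene of a sterol-regulated membrane protein, differed by 0.24 (-0.31 to 0.79).

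Of the 11 listed genes of sterol efflux and targets of the sterol receptor LXR, 8 were tested, 3 higher and 5 lower. Their median was -0.08, beside -0.032 over all genes tested. After adjustment 0 of 8 were called, against 0.0240% of all genes tested. Lpcat3, an LXR target that remodels membrane phospholipids, had the smallest p of the pathway. It read 8.93, 8.87 and 8.93 for wild type and 9.51, 9.54 and 9.31 for knockout, higher in 3 of 3 knockout livers, at a difference of 0.54 (SE 0.18, unadjusted p = 0.0133 and adjusted p = 0.746 with limma). The exporter genes Abcg1 and Abca1 differed by 0.50 (interval -0.26 to 1.26) and -0.13 (-0.64 to 0.39). Mylip, which encodes the ligase that degrades the LDL receptor, differed by -0.03 (-0.66 to 0.59).

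Over the 43 pathway genes tested, 21 were higher and 22 lower. At an unadjusted p under 0.05 there were 3 (6.98%), beside 6.46% of all genes tested, and the groups did not overlap in 4 (9.30%), beside 9.74%. Both shares are close to those over all genes. After adjustment limma called 0 of the 43, beside 0.0240% of all genes tested.

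**Figure D4:**
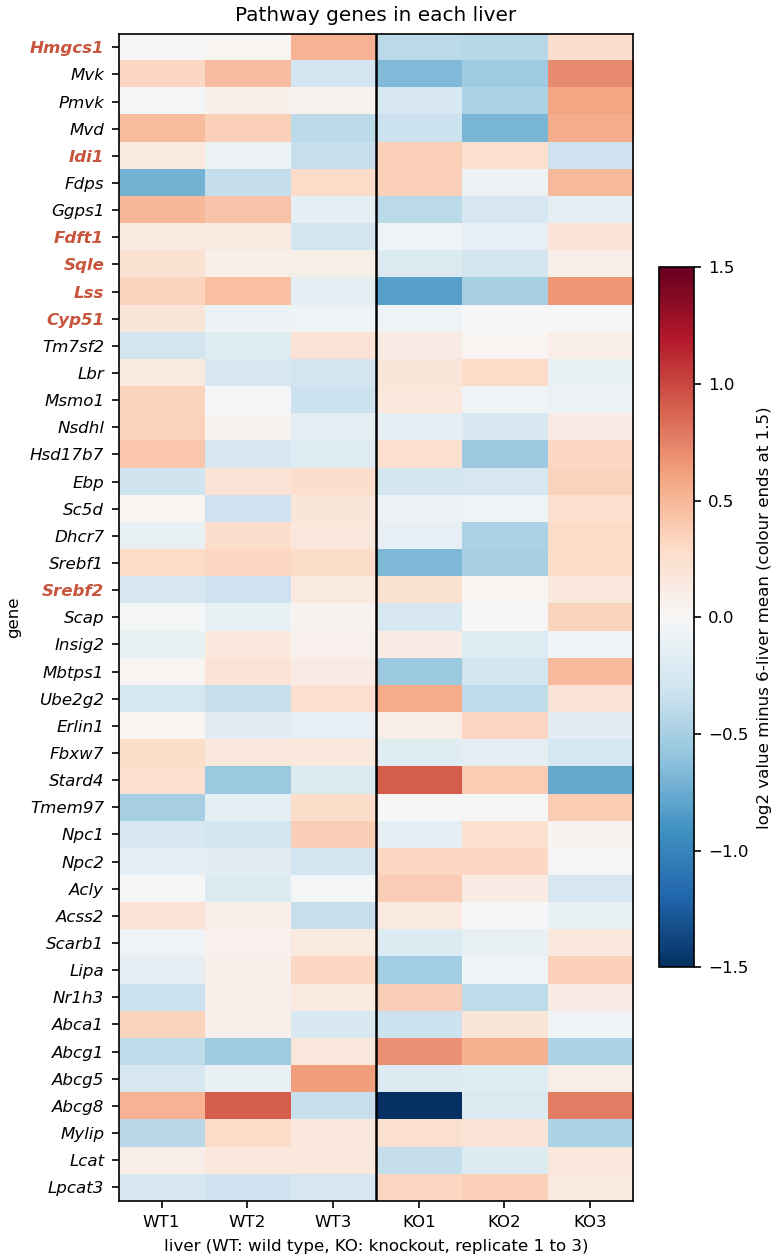
Log2 value minus the mean over 6 livers (colour, ending at 1.5) of the 43 pathway genes in each wild-type (WT) and knockout (KO) liver, with the genes of the SREBP2 set in red. For many enzymes knockout replicate 3 differs from knockout replicates 1 and 2; over 19 enzymes the mean deviations were -0.12, -0.23 and 0.23 for knockout.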

How the data were processed

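Liver RNA of wild-type and SIRT7 knockout mice was measured on 6 arrays, 3 per group, grouped by the sample titles. The authors deposited 1 value per probe set and array on a log2 scale, and the submitters' processing notes name GCRMA 2.20.0 and R 2.11.1; the log2 scale is read from the range of 0.841 to 13.97. GCRMA models background from probe sequence, so differences near the low end are not proportional to RNA amounts, and no detection calls come with the values. Of 22626 probe sets, 20380 had 1 gene symbol. Genes with a mean under 4 were left out. Groups were compared by lmFit and eBayes of limma 3.58.1 under R 4.3.3 (2-sided, Benjamini-Hochberg over 8343 genes, called at 0.05). In simulated, independent normal values of 8343 genes, 100 genes were changed by 2 log2 units and 100 by 4. Limma recovered 98% of the changes of 2 and 100% of those of 4. Beside these true calls it made 17 false calls. Changes as small as those of the SREBP2 set were not simulated, so the simulation cannot tell how often they would be found. Precision is limited by having 3 arrays per group. Errors of groups are SDs, and those of differences are moderated standard errors with 95% intervals.

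The genes and lists were chosen with earlier results of these data known. Genes named are all members, a fixed set of pathway genes, the 2 with the smallest p in each pathway list, and the 5 nearest profiles. Mvk, Pmvk and the single cell type markers were named after their values were seen.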

Additional observations from a re-analysis of the deposited data

How the results depend on the processing

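The comparison was repeated with quantile normalization, no filter on dim genes, a stricter filter at a mean of 6, the mean of a gene's probe sets, an intensity trend with robust variances, array weights, the replicate number as a block, and without each liver in turn. Limma called 0 genes of the SREBP2 set and 0 pathway genes in each of these except array weights, which called 1 (Lss) and 9, in a fit that called 1748 of all genes tested, with a median difference of the set of -0.19. The weights ran from 0.31 for knockout replicate 3 to 6.12 for knockout replicate 2. Over all genes the count was 1 with the mean of probe sets and 1 to 38 without 1 liver (38 when wild-type replicate 3 was removed, 7 for wild-type replicate 2, 5 for knockout replicate 1, and 1 each for the other knockout livers). Fdft1 turned to -0.021 with the mean of probe sets and -0.19 with array weights, and ranged from -0.13 (wild-type replicate 3 left out) to 0.082 with 1 liver removed, at -0.09 when this was knockout replicate 3. Cyp51 turned to 0.015 with array weights, and ranged from -0.073 to 0.054 with 1 liver removed, the highest when this was wild-type replicate 1. The cause of these turns was not tested. The other 5 measured genes kept their direction in all 13 alternatives. With the replicate block, which called 2 genes and 0 of the set, no call of the set changed; deviations of same-numbered livers correlated at -0.09, -0.09 and -0.19, and no liver correlated best with its own number, so the numbers were not taken as pairs.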
